A study of Homo sapiens with 131 samples.

Results

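The 10 genes described here encode the proteins that turn a licensed replication origin into a pair of running forks. They are CDC7 and DBF4, TOPBP1, TICRR and RECQL4, and CDC45 and the GINS genes GINS1, GINS2, GINS3 and GINS4. Members were taken by gene name from the gene TPM table, where 10 of 60708 genes matched, and 7 of the 10 also had a copy state and unspliced counts, out of 45404 genes that had them. The cells are HAP-1, an established near-haploid human line that carries a BCR-ABL1 fusion, sorted singly from mid S phase with no treatment and processed by the scRR1 version of scRR-seq, in which DNA is held on magnetic beads for copy number sequencing and RNA in the supernatant is sequenced in full length. DNA and RNA libraries with the same cell number were joined as 1 cell, which gave 56 cells in the tables out of 63 labelled as mid-S. Because the line is near-haploid, a locus has 1 copy before replication and 2 copies after it, and the replication score of a cell is the percentage of its called 40-kb bins at 2 copies.

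Replication origins are loaded with an inactive MCM ring in G1 phase and fire at different times in S phase. The kinase DDK, made of the catalytic subunit CDC7 and its activator DBF4, phosphorylates the MCM ring, and cyclin-dependent kinase lets TICRR (also called Treslin) bind TOPBP1. These scaffolds, with RECQL4, bring CDC45 and the GINS complex of 4 subunits to the ring, which then becomes the active CMG helicase. Several of these proteins are known to be scarce relative to the number of licensed origins, so their amounts are studied as a limit on how many origins fire together.

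The 56 cells had scores from 39.7 to 67.2%, with a median of 54.1%, and between 12045 and 15028 genes at a TPM of 1 or more. The cells came from 1 biological experiment, so each cell was the unit and p-values describe these cells only. Libraries with cell numbers up to 65 (29 cells) and with later numbers (27 cells) stood apart. Mitochondrial genes took 4.98 to 18.3% of TPM in the first set and 2.57 to 5.55% in the second, and the mean score was 50.7% ± 7.75 (SD) and 56.4% ± 7.07 (SD). The labels do not say what separated the sets, so the score and the set are partly entangled and values are given within sets where they differ. PCNA, MKI67, TOP2A and RRM2, the proliferation markers, were above 0 in all 56 cells. BCR was above 0 in 53 cells and ABL1 in 49. Of 8 blood markers, SPI1 and CD3E were at 0 in every cell and all 8 had a median of 0, as did 4 of 6 fibroblast, epithelial and endothelial markers.

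The sequences around the start sites are shown first, with the motifs of cell cycle transcription factors found in them, since the RNA of the members is compared below for shared movement. RefSeq promoters (GRCh38.p14, 250 bases before to 50 bases after each start) were given for 8 of the 10 genes, in 12 windows. One of the E2F-type motifs TTTGGCGC, TTTCCCGC, TTTGCCGC and TTTCGCGC, searched on both strands, was found in 5 of these 8 genes, while 3.31% of 35116 promoters held one. Here and below, a gene counted if any of its windows held the motif, while the shares of promoters are of single windows. The E2F family controls transcription of S-phase genes. In the matches below, capitals mark the motif on the strand of the gene, with 10 bases on either side, and positions count the start as 1.
GINS1, bases 6 to 13, chr20:25407668-25407695, plus strand: gctttgttcgGCGCCAAAgcgcggagcg
GINS2, bases -31 to -24, chr16:85688968-85688995, minus strand: tctcgccgtgGCGGGAAAacggcggccg
GINS3, bases -5 to 3, chr16:58392456-58392483, plus strand: gtccccgggcGCGGGAAAcgagtttcaa
CDC7, bases -68 to -61, chr1:91501034-91501061, plus strand: tgcagttcctTTTCCCGCcccccttcgg
CDC7, bases -34 to -27, chr1:91501068-91501095, plus strand: ccgacctgcgGCGGGAAAgtcgcgcgcc
TOPBP1, bases -7 to 1, chr3:133661931-133661958, minus strand: cgcgcggttgGCGCGAAAgtcggttccc
The pair in CDC7 lies before its second RefSeq start and faces in opposite directions. CDC45, DBF4 and TICRR had none of these letters in their windows.

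The promoters of CDC45 and TICRR are shown because they repeat a different motif, CCAAT, the letters bound by the factor NF-Y. CCAAT stood 4 times, once on the other strand, before the first CDC45 start and 5 times before the first TICRR start. CCAAT was found on either strand in 4 of the 8 members, the other two being GINS1 and GINS2, and in 34.6% of all promoters. Capitals mark CCAAT, or ATTGG where it lies on the other strand, in the 120 bases before each start, which hold 3 of the 5 TICRR matches.
CDC45, chr22:19479800-19479919, plus strand: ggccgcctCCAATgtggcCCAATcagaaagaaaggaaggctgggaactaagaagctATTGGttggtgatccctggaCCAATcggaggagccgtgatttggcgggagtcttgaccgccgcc
TICRR, chr15:89575349-89575468, plus strand: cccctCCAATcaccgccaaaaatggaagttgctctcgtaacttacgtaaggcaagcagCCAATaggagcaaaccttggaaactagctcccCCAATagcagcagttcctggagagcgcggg
The GC box GGGCGG was found on either strand in all 8 members and in 44.95% of all promoters, and TTTGAA, the CHR element of late cell cycle genes, only in DBF4, against 15.2% of all promoters.

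RNA of all 10 factors was detected in nearly every cell, at levels that spanned a 10-fold range between genes. On the TPM scale, CDC45, which completes the helicase, had the highest median at 162 and GINS4 the lowest at 15.8. Of 12302 expressed genes, those that reached a TPM of 1 in over 50% of cells, 93.6% had a lower median than CDC45 and 39.0% a lower median than GINS4. In 46 of 56 cells all 10 factors reached a TPM of 1. The next paragraphs give the levels by role, as TPM over all 56 cells.

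For the kinase, CDC7 ran from 0.24 to 192 TPM with a median of 50.6. DBF4 ran from 0 in 3 cells to 126 TPM with a median of 28.6. The catalytic subunit thus had the higher TPM in most cells, 36 of 56, with wide overlap. The span of DBF4 overlaps SLC25A40 on the other strand, and no source used here says that reads were counted by strand, so its values are uncertain. The same holds for the other members except GINS1 and CDC7, whose spans overlap no other gene. Of the 3 genes that overlap TICRR, 1 lies on its own strand.

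Among the scaffolds, TOPBP1 ran from 17.2 to 262 TPM with a median of 81.5. TICRR ran from 0.070 to 79.9 TPM with a median of 25.6 and was under 1 TPM in 2 cells. RECQL4, a RecQ-family helicase, ran from 44.1 to 403 TPM with a median of 128. RECQL4 had the widest relative gap between the medians of the library sets. Its TPM ran from 64.5 to 403 with a median of 162 in the first set, and from 44.1 to 169 with a median of 103.4 in the second, so the ranges overlapped and only the first set held the highest cells. Its Spearman rho with the mitochondrial share was 0.47 over all cells, 0.029 within the first set and -0.032 within the second.

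For the helicase, CDC45 ran from 9.60 to 319 TPM, with quartiles at 125 and 200. GINS1 ran from 20.7 to 172 TPM with a median of 64.2. GINS2 ran from 4.51 to 92.9 TPM with a median of 36.6. CDC45 was above every GINS gene in 52 of 56 cells. GINS3 ran from 0 in 2 cells to 110 TPM with a median of 23.1. GINS4 ran from 0 in 2 cells to 197 TPM, the cell with the highest value lying far above the upper quartile of 27.9. GINS proteins assemble in equal numbers, whereas their RNAs were unequal in these cells. GINS1 was the highest of the 4 in 33 cells and the lowest in 1, and GINS4 was the lowest in 31 cells and the highest in 4. By the median over cells, GINS1 made up 43.3% of the summed GINS TPM, GINS2 23.7%, GINS3 13.9% and GINS4 11.02%. TPM corrects for length, but no source used here states which lengths were applied. The length column of the table equals the whole gene span, introns included, for 100% of genes, and among the members the span runs from 6558 bp for RECQL4 to 111068 bp for GINS3. If those lengths were used, the order of the members and the GINS shares depend on it.

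The order of the medians was CDC45, RECQL4, TOPBP1, GINS1, CDC7, GINS2, DBF4, TICRR, GINS3 and GINS4. No 2 neighbours in it were separated beyond the spread of the cells. The interquartile ranges overlapped for all 9 neighbouring pairs, and the gene with the higher median was the higher in 27 to 39 of 56 cells.

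**Figure D1:**
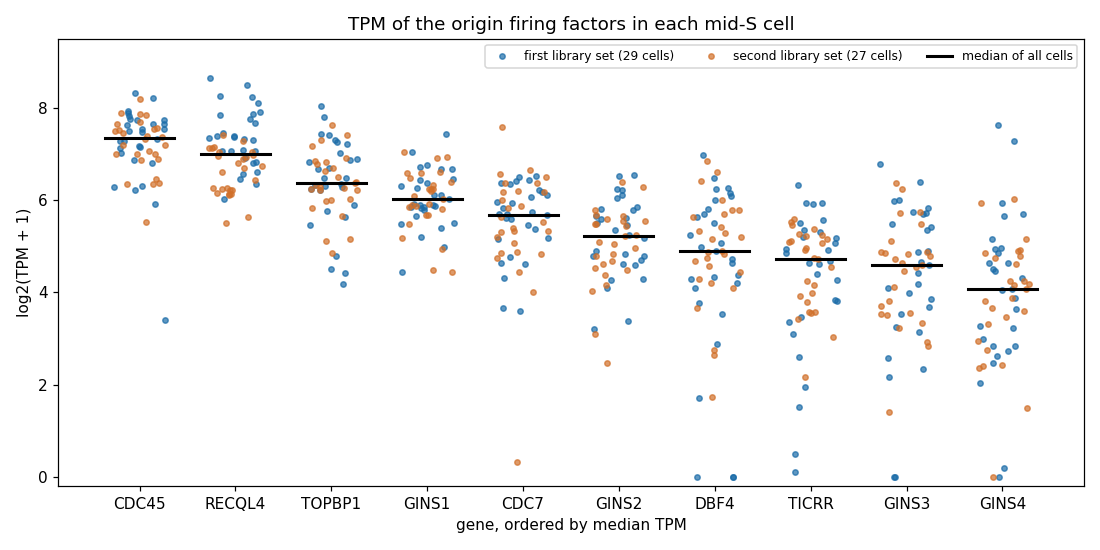
Each point is 1 of 56 mid-S cells, plotted as log2(TPM + 1) for each factor, with genes ordered by their median (black line) and colours for the library sets. CDC45 and RECQL4 sit highest with medians of 162 and 128 TPM, and the spread widens toward GINS4, which has a median of 15.8 TPM.

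The spread from cell to cell differed between members more than it followed complex membership. The coefficient of variation (SD over mean of TPM) was 0.39 for CDC45 and 0.43 for GINS1, while GINS3 reached 0.84 and GINS4 1.38. The median over the 10 members was 0.56, beside 0.79 over the 12302 expressed genes. Only 5.71% of those genes varied less than CDC45, and 92.0% varied less than GINS4. The spread was not compared between genes of equal level. The median of the member medians was 43.6 TPM, beside a median of 22.8 TPM for the expressed genes. GINS4 held cells at 197 and 154 TPM, beside an upper quartile of 27.9. Extreme values were not shared by the whole pathway. The same cell gave the lowest CDC45, the lowest TICRR and a GINS3 value of 0. Another gave the highest GINS2 and TICRR, another the highest CDC7 with the lowest GINS2, and another the highest GINS3 with the lowest TOPBP1. The cell with the highest DBF4 had GINS3 at 0, and the cell with the highest GINS4 had DBF4 at 0.

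The factors showed little common variation between cells. Among their 45 pairs the median Spearman rho was 0.039 and 27 pairs were above 0, while over all pairs of the 12302 expressed genes the median was 0.0037 with 5th and 95th percentiles of -0.24 and 0.25. These correlations are over 56 cells that share library sets and are given as a description. The highest pair was CDC7 with TOPBP1 at 0.45, also 0.45 after the mean rank of each library set was subtracted. CDC7 with its partner DBF4 was at 0.10 and TOPBP1 with its partner TICRR at -0.0023. The 6 pairs of GINS genes ran from -0.25, for GINS2 with GINS3, to 0.084, for GINS1 with GINS2. CDC45 with the GINS genes lay between 0.042 and 0.12. Apart from CDC7 with TOPBP1 and GINS2 with GINS3, the pairs lay between the 5th and 95th percentiles of all gene pairs.

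**Figure D2:**
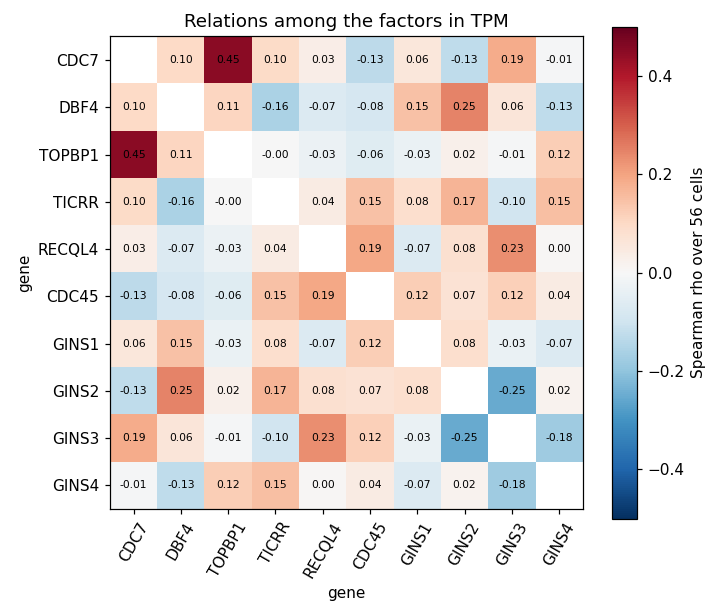
Spearman rho between the TPM of each pair of factors over 56 cells, coloured from blue (-0.5) to red (0.5). CDC7 with TOPBP1 (0.45) is the darkest square, and the GINS genes show no block of shared colour.

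The genes named here had the highest rho with each member out of 12302 expressed genes, a choice that favours high values. None of these relations was tested. The genes were mostly of other pathways. By Spearman rho over 56 cells among expressed genes, CDC45 was closest to MTHFSD at 0.54, GINS2 to TRIM13 at 0.60, GINS3 to RP11-816B18.1 at 0.48 and GINS4 to ANKRA2 at 0.54. CDC7 was closest to TBL3 at 0.51, DBF4 to MED11 at 0.54, TOPBP1 to SNRPE at 0.50 and TICRR to PSMG3-AS1 at 0.51. RECQL4 was closest to a clone-named gene of chromosome 3, ENSG00000241634.1, at 0.55, then to SERPING1 and the mitochondrial MT-CO2, also at 0.55. Once the library sets were subtracted these were at 0.45, 0.39 and 0.17. GINS1 was closest to SNHG11 at 0.50, XRN2 at 0.47 and WEE1 at 0.46. SNHG11 and XRN2 lie on chromosome 20 with GINS1, as do 2.54% of expressed genes. The median rho of GINS1 was 0.020 with the genes of chromosome 20 and 0.0032 with other genes.

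No factor passed the test for a change with replication progress. An additive model fitted to log10(TPM + 1) against the score called 0 of 10 members at an adjusted p under 0.05, beside 7 of 17132 genes tested (0.0409%), and at an unadjusted p under 0.05 it gave 1 member, RECQL4, beside 10.4% of genes. A straight line fitted by limma also gave 0 adjusted calls and the same 1 member unadjusted. With mitochondrial genes left out of the total, 3 members (CDC45, GINS2 and RECQL4) were under that unadjusted level, without the 2 cells of most extreme score 2 (GINS2 and RECQL4), and with a term for the set 0. In direction, 9 of 10 members had a rho below 0 with the score, DBF4 being the exception at 0.051, beside 49.0% of all genes tested. The median rho of the members was -0.13, beside 0.0039 over all genes tested. These rho values are between libraries of 1 experiment and carry no test of the group.

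Cells were also divided into tertiles of the score, 39.7 to 49.6% (19 cells), 50.1 to 56.6% (18 cells) and 56.7 to 67.2% (19 cells), of which 13, 10 and 6 cells were of the first set. CDC45 ran from 9.60 to 319 TPM with a median of 197 in the low tertile, from 59.6 to 298 with a median of 181 in the middle tertile and from 45.1 to 294 with a median of 144 in the high tertile. Its medians were lower in each later tertile, with almost complete overlap of the cells, and rho was -0.27 (adjusted p = 0.528, additive model with Benjamini-Hochberg adjustment). Within sets rho was -0.24 and -0.32.

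RECQL4 ran from 64.5 to 403 TPM with a median of 132 in the low tertile, from 44.1 to 304 with a median of 155 in the middle tertile and from 48.9 to 202 with a median of 105.9 in the high tertile. The high tertile lacked the strongest cells, but the low and middle tertiles were not in order. Its slope by limma was -0.28 ± 0.12 (SE) in log2(TPM + 1) for each 10 percentage points of score, and the additive model gave p = 0.0184 (adjusted p = 0.385). With the library set as a term its p was 0.279, and rho was -0.020 within the first set and -0.29 within the second.

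Of the remaining members, GINS2 and TOPBP1 had a rho near that of RECQL4 over all cells, -0.24, and the others a weaker one. TOPBP1 had medians of 110, 76.3 and 77.5 TPM in the low, middle and high tertiles, with rho -0.24 and p = 0.205. GINS2 had medians of 43.7, 34.3 and 30.4 TPM, with rho -0.26 over all cells, -0.025 within the first set and -0.39 within the second, a difference between sets that was not tested. GINS3 had medians of 24.2, 25.8 and 13.1 TPM and rho -0.16. DBF4 had medians of 30.6, 26.3 and 37.9 TPM. For TICRR, CDC7, GINS1 and GINS4 rho lay between -0.10 and -0.020.

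Related genes were counted by the role of their products. All 6 genes of the MCM ring, onto which these factors load, had a rho below 0, with a median of -0.34, 4 had an unadjusted p under 0.05, and MCM3 was called (rho -0.62, adjusted p = 0.0085). MCM3 is a subunit of the ring itself. Of 9 licensing genes (the ORC subunits, CDC6, CDT1 and GMNN), 4 had a rho below 0, with a median of 0.0093. Of 9 other firing genes, including MTBP, MCM10, DONSON and the S-phase cyclins, 5 were below 0, and of 8 fork partners, including the polymerase epsilon subunits, 4 were. None of these was called, nor were any of 7 genes that restrain firing or 6 that unload the helicase, where 5 and 1 were below 0. TOP2A, a marker of later cycle stages, had the highest rho among the listed genes at 0.51 and did not pass the test (adjusted p = 0.125). The difference between the MCM genes and the firing factors was not tested.

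**Figure D3:**
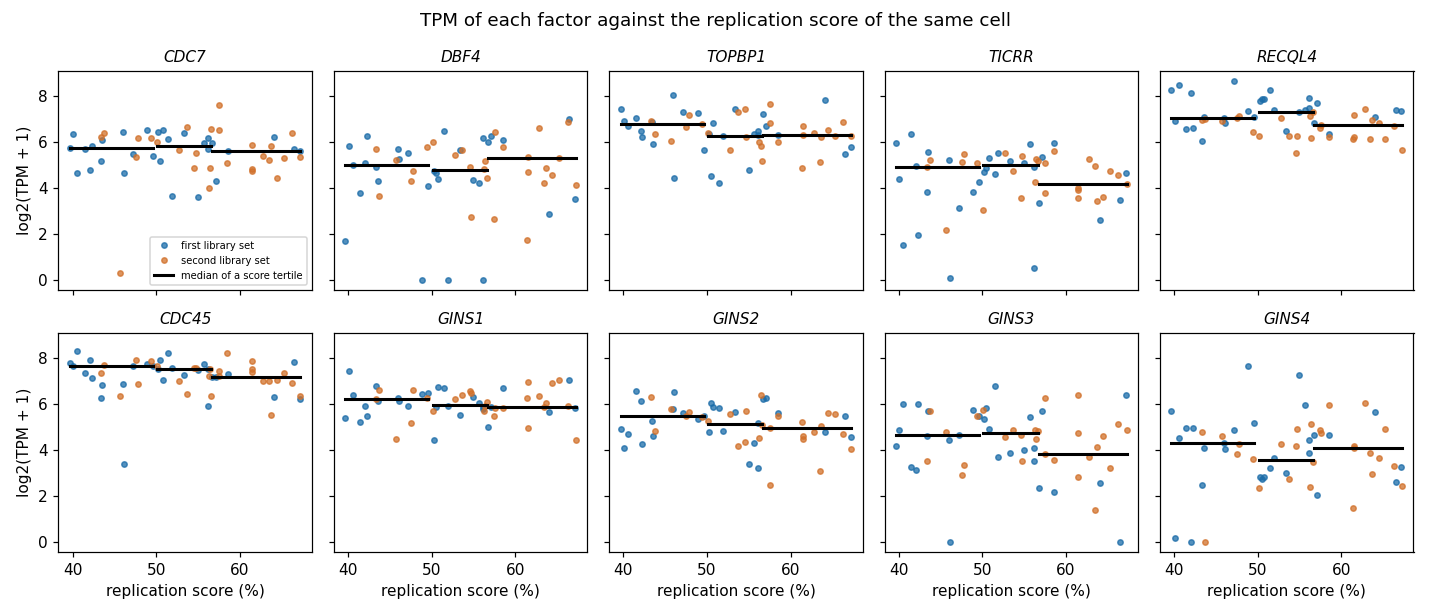
Each panel plots log2(TPM + 1) of 1 factor against the replication score of the same cell, for 56 cells in 2 library sets, with black lines for the medians of the low, middle and high tertiles of the score. The median of CDC45 is 197 TPM in the low and 144 TPM in the high tertile, and the points of all tertiles overlap in every panel.

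Unspliced counts, which approximate recent transcription, were sparse for most members. Their table is titled TPM, but its totals differed between cells, so its values were read as estimated counts. They were above 0 in 53 of 56 cells for GINS1, 50 for TOPBP1, 48 for GINS3, 45 for CDC45, 28 for DBF4, 16 for GINS2 and 2 for GINS4. Unspliced counts of CDC7, TICRR and RECQL4 were not analysed here. GINS1 had the highest median, 59.1 counts, and ran from 0 to 617. CDC45 ran from 0 to 256 counts with a median of 23.5, and TOPBP1 from 0 to 310 with a median of 38.7. GINS3 had a median of 0.90 and a highest value of 97.0. Unspliced counts and TPM of the same gene went together across cells for TOPBP1 (rho 0.50) and CDC45 (0.32) and less so for GINS3 (0.13) and GINS1 (0.11). Unspliced totals ran from 425181 to 1353931 per cell, with medians of 812254 in the first set and 568578 in the second.

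Along the score, unspliced CDC45 and GINS1 had lower medians in later cells, but neither passed the test. CDC45 ran from 0 to 256 counts with a median of 47.2 in the low tertile, from 0 to 202 with a median of 19 in the middle tertile and from 0 to 180 with a median of 13 in the high tertile. All tertiles held cells at 0. The slope by edgeR's quasi-likelihood test was -0.95 in log2 for each 10 percentage points of score (p = 0.0530, adjusted p = 0.416). GINS1 had medians of 100, 56.9 and 22.5 counts in the low, middle and high tertiles, with highest values of 617, 299 and 197, and a slope of -0.55 (adjusted p = 0.635). The slope was -0.55 for GINS3 and -0.18 for TOPBP1. The medians also differed between the library sets, 31 and 11.2 counts for CDC45 and 84.2 and 25 for GINS1 in the first and second set. With the set in the model the slopes were -0.83 for CDC45 (p = 0.130), -0.36 for GINS1 (p = 0.398), -1.01 for GINS3 (p = 0.0412, adjusted p = 0.479) and -0.0076 for TOPBP1. Only these 4 members passed the filter of counts above 0 in over 50% of cells, and 0 of the 4 were called, beside 2.68% of 10739 genes. At an unadjusted p under 0.05 edgeR with TMM scaling and no set term gave 0 of the 4, beside 12.3% of genes. With DESeq2 size factors it gave CDC45 (p = 0.0432), as did DESeq2 itself (p = 0.0119, adjusted p = 0.144). The GINS3 slope turned to 0.50 when the 2 cells with the most extreme scores were left out.

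Among the 7 factors with a copy state, the share of cells at 2 copies ran from 100% for CDC45 to 45.5% for GINS4. CDC45 was at 2 copies in 55 of 55 cells scored 40 to 70% (100%, 95% exact binomial interval 93.5 to 100). GINS2 was at 2 copies in 46 of 48 called cells (95.8%, 85.7 to 99.5) and GINS3 in 51 of 54 (94.4%, 84.6 to 98.8). GINS1 was at 2 copies in 47 of 55 cells (85.5%, 73.3 to 93.5) and DBF4 in 44 of 55 (80%, 67.0 to 89.6). TOPBP1 was at 2 copies in 26 of 55 cells (47.3%, 33.7 to 61.2) and GINS4 in 25 of 55 (45.5%, 31.97 to 59.4). The median gene was at 2 copies in 81.8% of cells. Genes above 77.8% were classed as early-S and those above 22.2% as mid-S, which put TOPBP1 and GINS4 in the mid-S class, with 27.3% of genes, and the other 5 in the early-S class, with 53.8%. The intervals cover counting error only. CDC7 and TICRR lie on chromosomes 1 and 15, which the authors left out of the DNA analysis for this line, and the nearest bin to RECQL4 was 151 kb away, so these 3 have no copy state.

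The shares for TOPBP1 and GINS4 were higher in cells further through S phase. GINS4 was at 2 copies in 3 of 18 cells in the low tertile, 9 of 18 in the middle tertile and 13 of 19 in the high tertile. TOPBP1 went from 6 of 18 through 9 of 18 to 11 of 19. GINS1 went the other way, from 17 of 18 through 17 of 18 to 13 of 19, and its 1-copy cells had a median score of 57.5% against 53.3% in its 2-copy cells. In the first and second library set, the shares were 92.9% and 77.8% for GINS1, 39.3% and 55.6% for TOPBP1, and 50% and 40.7% for GINS4. The tertiles also differed in their mix of sets, which was not separated from the score here. The score is made from the same bins, so these counts describe the cells. Of the 55 cells, 9 had all called members at 2 copies, 19 had 1 member at 1 copy, 18 had 2 and the other 9 had 3 or 4.

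Around the genes, the share at 2 copies showed where each lay on its replication domain. GINS1 sat on the top of a domain, with 85.5% in its nearest bin, not exceeded within 1000 kb, and 0% at 988 kb upstream of its start. GINS4 lay on a slope that ran from 9.09% at 789 kb upstream to 90.9% at 971 kb downstream. TOPBP1 lay below an upstream peak of 81.8% at 678 kb. GINS2 lay at the edge of a replicated region, with 92.0% in its nearest bin and 10.9% at 930 kb upstream. CDC45 lay among 37 bins at 84.6% or more, none of them farther upstream than 459 kb.

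**Figure D4:**
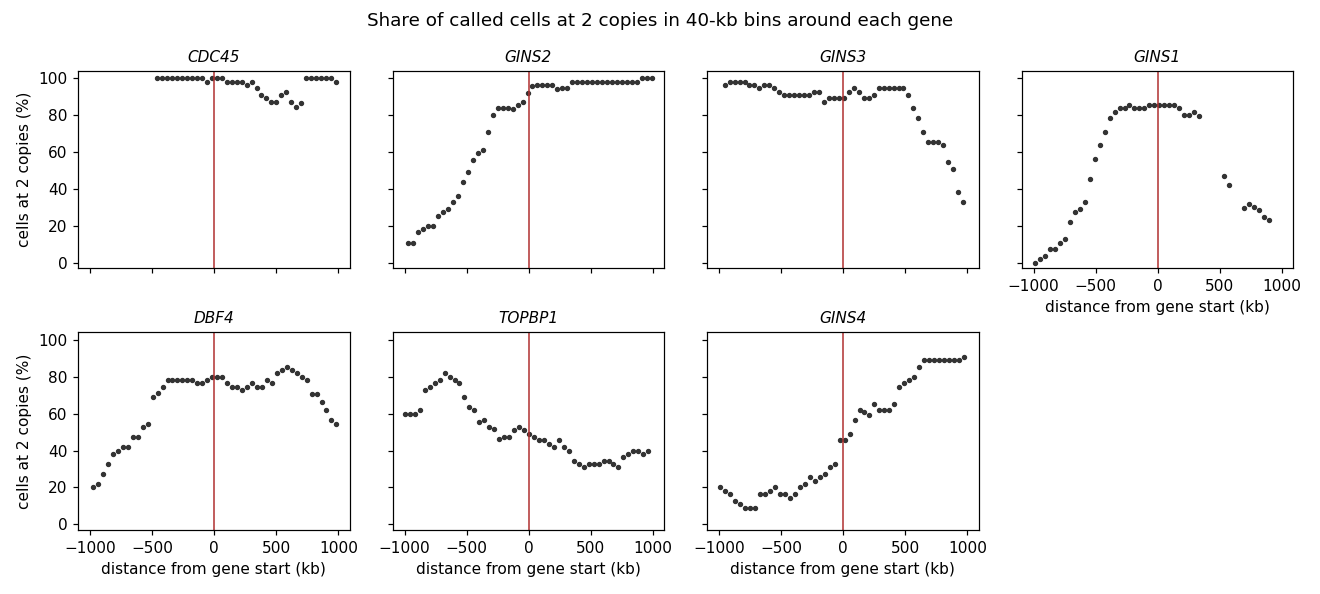
Points are 40-kb bins within 1000 kb of the start of each gene's annotated span (red line), in the direction of transcription. They are plotted as the percentage of called cells at 2 copies. For GINS3 that start, chr16:58295080, lies upstream of the RefSeq start whose sequence is shown above. The CDC45 bins, which reach no farther upstream than 459 kb, lie at 84.6 to 100%, GINS1 lies on a peak of 85.5%, and GINS4 at 45.5% on a slope from 9.09 to 90.9%.

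Cells with 2 copies of a factor's gene were compared with cells that still had 1 copy. Genes were tested where neither state held over 80% of called cells, and 3 members qualified in exon TPM. TOPBP1 ran from 20.6 to 224 TPM with a median of 77.1 in 26 2-copy cells and from 17.2 to 262 with a median of 98.5 in 29 1-copy cells. DBF4 ran from 0 to 126 TPM with a median of 34.1 in 44 2-copy cells and from 2.33 to 75.7 with a median of 23.7 in 11 1-copy cells. GINS4 ran from 1.82 to 154 TPM with a median of 13.7 in 25 2-copy cells and from 0 to 197 with a median of 15.8 in 30 1-copy cells. The states overlapped widely in all 3 genes, but for DBF4 the 2-copy cells reached 126 TPM and the 1-copy cells only 75.7. The two-sided permutation test of mean ranks, with 100000 resamples, gave p = 0.301 for TOPBP1, 0.294 for DBF4 and 0.780 for GINS4. The Wilcoxon test called 0 of 3 at an unadjusted p under 0.05, beside 8.55% of 2455 genes, and no gene passed after adjustment. Unspliced TOPBP1 had medians of 38.7 counts at 2 copies and 34 at 1 copy (permutation p = 0.912). It was the only member tested there, where 6.71% of 3159 genes had an unadjusted p under 0.05.

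GINS1 fell outside that filter because its 1-copy cells were few, and was looked at after its value without the filter had been seen. The 8 1-copy cells had 20.7, 29.5, 30.5, 35.4, 43.9, 56.5, 59.2 and 63.9 TPM. The 47 2-copy cells ran from 20.7 to 172 TPM with a median of 72.6. All 8 1-copy cells lay below that median, 28 of the 2-copy cells lay above every 1-copy cell, and 3 lay below the 1-copy median of 39.6. The ratio of medians was 1.83 and the permutation test gave p = 0.00119. The results of the study state the same limit on the share of cells in 1 state, so GINS1 falls outside its filter too. The methods of the study name only a filter on low counts. With such a looser filter and no limit on that share, GINS1 was 1 of 6 members at an unadjusted p under 0.05. The share of all 11020 genes was 5.20%. The adjusted p of GINS1 over all of these genes was 0.881 by the Wilcoxon test, so it did not pass.

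The GINS1 difference had the same direction in both library sets. In the first set the median was 66.6 TPM in 26 2-copy cells and 25.6 in 2 1-copy cells, and in the second 74.5 TPM in 21 and 50.2 in 6. These values come from the cells in which the difference was seen. In the high tertile of the score, with 13 2-copy and 6 1-copy cells, the permutation test gave p = 0.0873. Unspliced GINS1 had medians of 25.8 and 69.5 counts at 1 and 2 copies (permutation p = 0.129, and 0.259 when permuted within library sets). These counts were not scaled, and the median unspliced totals of the same cells were 570215 and 676356. The median mitochondrial share was 3.75% in the 1-copy and 6.13% in the 2-copy cells. It was 9.07% and 10.9% in the first set and 3.40% and 3.28% in the second, and its rho with GINS1 TPM was -0.011 within the first set and 0.61 within the second. Over the other 312 expressed genes of chromosome 20, the mean deviation from each gene's own mean was -0.029 ± 0.20 (SD) in log2(TPM + 1) in the 1-copy cells and 0.0043 ± 0.15 (SD) in the 2-copy cells. SNHG11 and XRN2 of that chromosome were picked above by their rho with GINS1, so low values beside low GINS1 follow from the choice. Their medians were 17.4 and 56.8 TPM in the 1-copy cells and 32.1 and 87.3 TPM in the 2-copy cells. The part of any of these in the GINS1 difference was not tested.

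**Figure D5:**
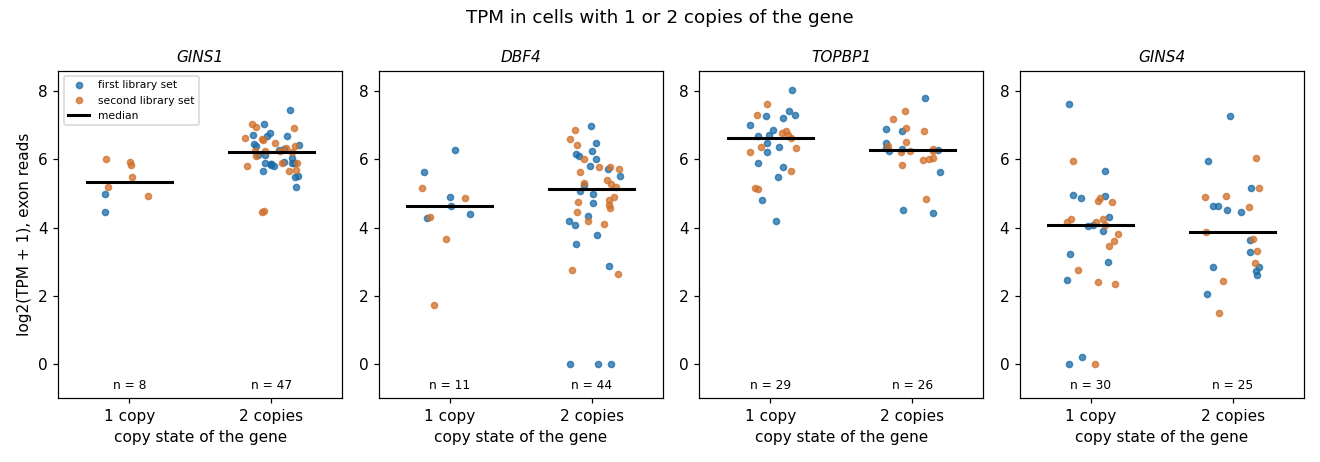
Points are cells scored 40 to 70%, plotted as log2(TPM + 1) from exon reads by the copy state of the gene, with black lines for medians and colours for library sets. The 8 cells with 1 copy of GINS1 all lie below the 2-copy median of 72.6 TPM, while both states overlap for DBF4, TOPBP1 and GINS4.

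For 3 members the comparison rested on too few cells or could not be made. GINS2 had 23.4 and 47.8 TPM in its 2 1-copy cells, beside a 2-copy median of 36.8. GINS3 had 9.04, 24.2 and 110 TPM in its 3 1-copy cells, beside a 2-copy median of 23. CDC45 had no 1-copy cell.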

How the data were processed

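Mid-S HAP-1 cells carried 1 DNA and 1 RNA library each. Deposited gene and exon TPM, unspliced expected counts (fractional read counts) and copy-state scores (-1, 0 or 1 per gene and 40-kb bin, for 1 copy, no call and 2 copies) were made by the authors with ramdaq (Hisat2, featureCounts) and with BWA 0.7.17-r1188 (submitters' processing notes) and AneuFinder on hg38. Unspliced values are gene-body less exon reads, with negatives set to 0, and nuclear RNA may be under-represented. The deposited unspliced table is titled TPM, but its totals differ between cells, so its values were treated like estimated counts. The methods state downsampling to a common read number, which its highest total exceeds, so whether it applied to this table is not known here. RNA taken from the supernatant and the single experiment limit precision.

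Members and lists were chosen with earlier results of these data known. Progression was fitted with mgcv 1.9-3 over genes at a TPM of at least 1 in 20% of cells, edgeR 4.0.16 (rounded counts, TMM) for unspliced counts, and Wilcoxon tests in SciPy 1.17.1 for copy state, each with Benjamini-Hochberg adjustment over all genes at 0.05. DESeq2 1.42.0 and limma 3.58.1 were alternatives, with log2(TPM + 1). The additive model and edgeR were tested on simulated data, and the Wilcoxon test on shuffled values with changes added. The changes added by copy state were larger than the step from 1 to 2 copies, so a change of that size was not checked. Named genes were all members, the 3 genes nearest to each by rho (the nearest being given, with all 3 for RECQL4 and GINS1), and of the other lists those called and the 2 of largest rho. The 7 other mid-S cells and 5 G1 libraries were not analysed.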

Additional observations from a re-analysis of the deposited data

How the results depend on the processing

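No member passed an adjusted threshold in any setting tried. The lowest adjusted p of a member was 0.337 along the score in TPM, 0.144 in unspliced counts and 0.782 by copy state, and MCM3 was called in all 8 settings. The count of genes called in TPM moved from 7 to 39 with no filter on low values and to 2 once the library set entered the model. In unspliced counts the genes called falling moved from 139 to 1001 with no filter, to 224 by DESeq2's Wald test and to 49 with the library set, and those called rising from 149 to 1218, 172 and 58. By copy state, edgeR on unspliced counts gave 182 adjusted calls where the Wilcoxon test gave 0. The cause was not tested. Directions that turned were all of values that did not pass. The GINS3 unspliced slope was 0.50 with the 2 cells of most extreme score left out. The difference in mean rank, 2-copy minus 1-copy, turned to -0.29 for GINS4 after regression on the score and to -0.88 for unspliced TOPBP1 at scores of 45 to 65%, and edgeR gave TOPBP1 a log2 fold change of -0.14. Within the second library set alone, added after the data were seen, rho with the score was 0.0061 for GINS4 and -0.031 for DBF4. DBF4 had too few 1-copy cells to be tested at 45 to 65%. The bin shares differed from the gene shares by at most 2.17 percentage points. No paired analysis was possible because the DNA and RNA libraries that share a number are 2 readouts of 1 cell, and no test compares them as groups. Unspliced GINS4 had counts in only 2 cells, too few for a comparison at this depth.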
